A study of Mus musculus with 6 samples.

Results

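Of 54532 genes in the expression table, 9 genes of the NRF2 antioxidant pathway were followed, chosen by name: Nfe2l2, Keap1, Hmox1, Nqo1, Gclc, Gclm, Gsr, Txnrd1 and Srxn1. All 9 passed the filter on low values and were among the 12944 genes tested. RNA was sequenced from the hearts of 6 mice, 3 controls (Ctrl) and 3 conditional knockouts (cKO). The Ctrl mice were Mrps5 fl/fl. The cKO mice were Mrps5 fl/fl; MCM, and so carried in addition MerCreMer, a tamoxifen-inducible Cre recombinase driven in cardiomyocytes by the αMHC promoter. Both groups received tamoxifen at 8 weeks of age, at 45 mg per kg per day for 5 days, and the hearts were taken 12 weeks later according to the labels, while the study's methods describe littermates of 12 weeks of age. Since no Ctrl heart carried MCM, the activity of MerCreMer and the loss of Mrps5, which encodes a protein of the mitochondrial ribosome, cannot be told apart in this comparison.

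NRF2, the product of Nfe2l2, is a transcription factor that cells hold ready against oxidants and reactive chemicals. KEAP1 binds NRF2 and hands it to a CUL3 ubiquitin ligase, so that NRF2 is destroyed as fast as it is made. When oxidants modify KEAP1, NRF2 escapes, pairs with a small MAF protein and binds antioxidant response elements near genes for glutathione, thioredoxin, NADPH and the removal of heme and quinones. Because this control acts on the protein, the mRNA level of Nfe2l2 itself does not report the activity of NRF2. In the heart, where mitochondria fill much of the cardiomyocyte, these genes supply the reducing power that disposes of peroxides from respiration.

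The RefSeq promoter table (GRCm38.p6) held windows from 250 bases before to 50 bases after the start for 6 of the 9 genes, 8 windows in all, and none was found there for Hmox1, Gclc and Gsr. The core of the antioxidant response element, TGACNNNGC on either strand, occurred in 4 of these 8 windows and in 12.4% of 32851 windows of all genes. Those 4 windows belonged to Nfe2l2, Gclm, Txnrd1 and Srxn1, and none was found in the windows of Keap1 and Nqo1. For Srxn1 the match was TGACCTAGC, on the opposite strand, from 29 to 37 bases after the start. The other 3 matches lie within the 250 bases before the start, printed here because Txnrd1 is among the genes that rose in cKO hearts while Gclm and Nfe2l2 are not. Capitals mark the match. It reads TGACTCCGC on the gene's own strand for Nfe2l2, and TGACGGTGC for Gclm and TGACAAAGC for Txnrd1 on the opposite strand.
Txnrd1, 1 of 3 annotated starts (chr10:82858956-82859205, plus strand): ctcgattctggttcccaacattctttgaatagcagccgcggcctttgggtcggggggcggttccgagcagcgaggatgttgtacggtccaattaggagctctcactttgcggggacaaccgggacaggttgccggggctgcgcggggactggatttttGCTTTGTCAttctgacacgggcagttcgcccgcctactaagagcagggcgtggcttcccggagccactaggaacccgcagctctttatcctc
Gclm (chr3:122245307-122245556, plus strand): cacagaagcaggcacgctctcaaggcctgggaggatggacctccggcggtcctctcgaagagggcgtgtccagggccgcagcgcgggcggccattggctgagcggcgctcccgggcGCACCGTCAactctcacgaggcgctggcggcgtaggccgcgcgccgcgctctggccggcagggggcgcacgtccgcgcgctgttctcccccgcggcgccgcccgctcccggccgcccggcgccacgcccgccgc
Nfe2l2 (chr2:75704664-75704913, minus strand): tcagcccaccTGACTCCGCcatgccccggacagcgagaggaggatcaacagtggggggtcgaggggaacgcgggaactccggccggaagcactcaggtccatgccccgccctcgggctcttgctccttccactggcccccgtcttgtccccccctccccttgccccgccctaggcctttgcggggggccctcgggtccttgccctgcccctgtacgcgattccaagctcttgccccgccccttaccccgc

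A match of these letters is a description of the sequence and does not show that NRF2 binds there. The shorter motif TGATGNAA, part of the element bound by ATF4 with its partners, occurred in 0 of the 8 windows and in 3.97% of all windows.

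The libraries held 15989322 to 24875499 reads assigned to genes, worked back from the values, and 211 to 4871 reads stood behind each value of the 9 genes. Mrps5, the targeted gene, measured 5.20, 6.45 and 6.33 FPKM in the 3 Ctrl hearts against 1.12, 1.23 and 1.31 FPKM in the 3 cKO hearts (limma adjusted p 0.000202). Cardiomyocyte genes were abundant in every heart, with a summed level of 10 markers of 17860 to 21740 FPKM in Ctrl and 10440 to 17270 FPKM in cKO, and 7 of the 10 fell (8 without cKO replicate 2), where 17.0% of all genes tested were called lower. The 4 Y-linked genes together reached 30.4 to 35.2 FPKM in each of 5 libraries but gave no read in cKO replicate 2, although the study describes male mice only. Counts of calls for the 9 genes and for the lists set beside them are therefore also given without that heart. In that fit 15.4% of all genes tested were called higher and 15.5% lower. The 5 atrial markers summed to 2054 FPKM in Ctrl replicate 1 against 289.6 and 127.8 FPKM in Ctrl replicates 2 and 3, although the tissue is described as ventricular. In cKO replicates 1 to 3 they summed to 575, 1348 and 1675 FPKM. Of these sums Nppa, which the study also counts as a hypertrophy marker, held 469, 1127 and 938 FPKM. The cKO sums therefore do not speak for atrial tissue alone. Myl7, another of the 5, was at 71.8, 169.7 and 495 FPKM there, against 678.6, 98.6 and 18.2 FPKM in Ctrl replicates 1 to 3. Adipocyte markers were likewise highest in Ctrl replicate 1, with 20.8 FPKM in sum against 4.74 and 5.91 FPKM in the other Ctrl hearts.

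To ask whether the NRF2 pathway was altered in hearts after deletion of Mrps5, the 9 genes were compared between the groups. Srxn1, Hmox1, Txnrd1 and Gsr rose in cKO hearts, by 3.20-, 3.05-, 2.27- and 1.53-fold in mean FPKM. Keap1 fell to 75.8% of Ctrl. Nfe2l2 and Nqo1 did not pass the test and their values overlapped between the groups, and Gclc and Gclm were above Ctrl by 1.29- and 1.40-fold in mean FPKM without passing. Thus 4 of 9 were called higher and 1 of 9 lower at an adjusted p under 0.05 (limma on log2(FPKM + 1), Benjamini-Hochberg over all genes tested), where 33.3% of all genes tested were called, 16.3% higher and 17.0% lower. The groups did not overlap for 5 of 9 genes with cKO higher and for 1 of 9 with cKO lower, against 24.8% and 26.4% of all genes tested. The median log2 fold change was 0.42 over the 9 genes and -0.02 over all genes tested. Without cKO replicate 2, 6 of the 9 were called higher and 1 lower, beside 15.4% and 15.5% of all genes tested in that fit. Ctrl replicate 1 was the highest Ctrl heart for 7 of the 9 genes. No such share over all genes tested is given here, so whether this is particular to the 9 genes cannot be told. Without Ctrl replicate 1, 4 of the 9 were called higher and 1 lower, beside 11.2% and 12.1% of all genes tested. They were the same 5 genes as with all 6 hearts.

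**Figure D1:**
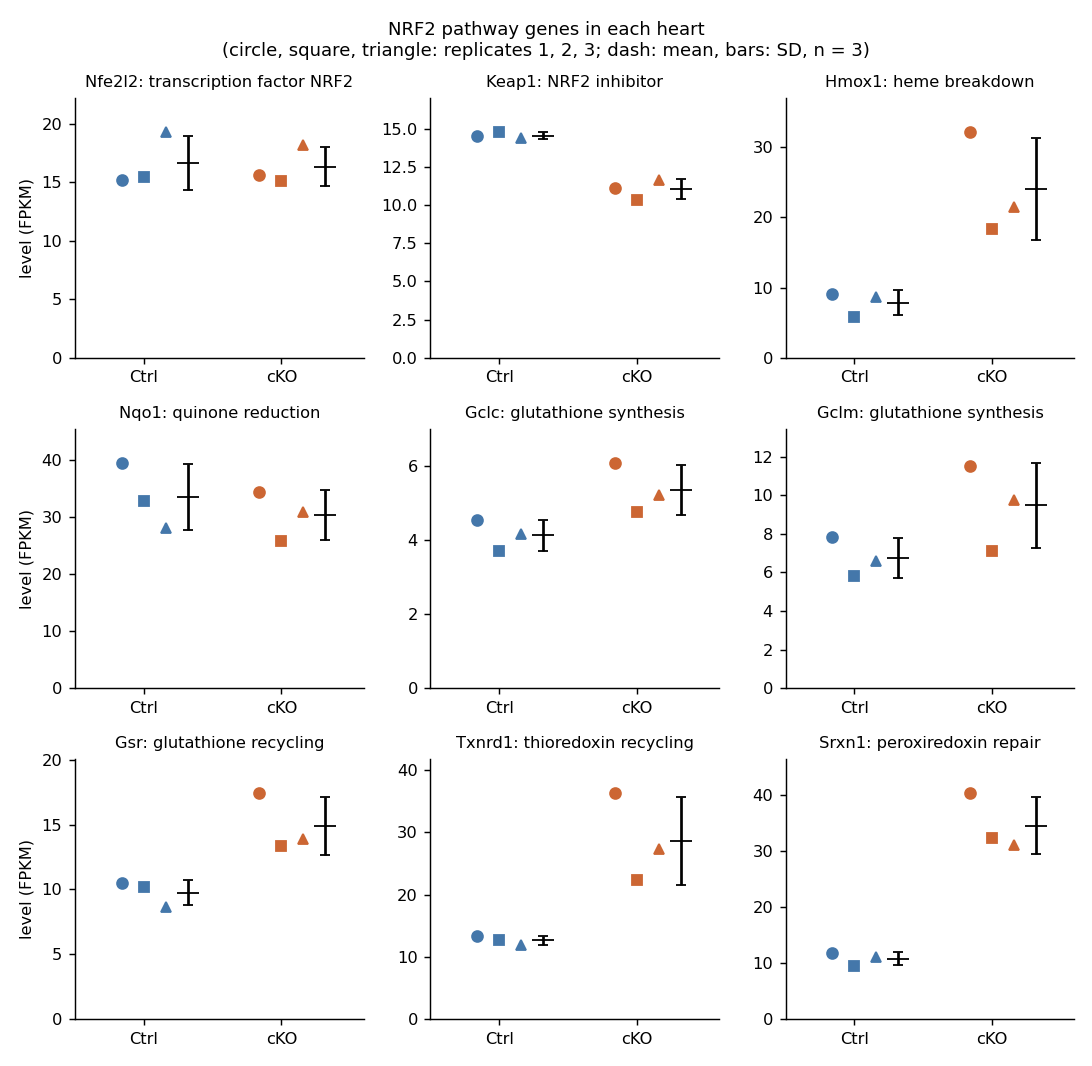
Level of each of the 9 NRF2 pathway genes in FPKM (vertical axis, from 0) in the 3 Ctrl (blue) and 3 cKO (orange) hearts, with the mean and SD beside the points. All cKO hearts lie above all Ctrl hearts for Hmox1, Gclc, Gsr, Txnrd1 and Srxn1 and below them for Keap1, and the groups overlap for Nfe2l2, Nqo1 and Gclm.

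The regulators came first. Nfe2l2 (chromosome 2, 75675513 to 75704641, minus strand) measured 15.2, 15.5 and 19.3 FPKM in Ctrl hearts 1 to 3 against 15.7, 15.1 and 18.2 FPKM in cKO hearts 1 to 3, an order of replicates kept for all values given per heart. Mean levels were 16.6 ± 2.31 and 16.3 ± 1.66 FPKM (SD, n = 3 each), and replicate 3 was the highest heart of each group. Its log2 fold change was -0.02, with a 95% interval from -0.30 to 0.25 (limma adjusted p 0.902), and its sign turned under both other scalings. Keap1 (chromosome 9, 21229730 to 21239361, minus strand), the inhibitor, measured 14.5, 14.8 and 14.4 FPKM in the Ctrl hearts against 11.1, 10.3 and 11.7 FPKM in the cKO hearts. Every cKO heart lay below every Ctrl heart, and its log2 fold change reached -0.37 (SE 0.071; limma adjusted p 0.00884). The spread of Keap1 among Ctrl hearts was the narrowest of the 9 genes, 1.51% of its mean. The ratio of Keap1 to Nfe2l2 FPKM was 0.956, 0.957 and 0.745 in Ctrl and 0.709, 0.684 and 0.640 in cKO hearts, so that Ctrl replicate 3 lay closest to the cKO hearts.

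Hmox1 (chromosome 8, 75093621 to 75100589, plus strand) encodes heme oxygenase 1, the inducible enzyme that opens heme into biliverdin, iron and carbon monoxide. It measured 9.14, 5.79 and 8.66 FPKM in the Ctrl hearts against 32.1, 18.3 and 21.5 FPKM in the cKO hearts. The lowest cKO heart was above the highest Ctrl heart, and its log2 fold change reached 1.48 (SE 0.23; limma adjusted p 0.00452), larger than that of 99.1% of genes tested. Hmox1 is also strongly expressed by macrophages that clear red cells. The summed level of 12 macrophage markers was 353 to 490 FPKM in Ctrl and 277 to 416 FPKM in cKO hearts. Of these 12 markers, Fcgr1 rose, Csf1r fell and 10 did not pass, where 16.3% of all genes tested were called higher and 17.0% lower. Without cKO replicate 2 again 1 was higher and 1 lower, beside 15.4% and 15.5%. Without Ctrl replicate 1, 1 was higher and 2, Csf1r and Cd163, lower, beside 11.2% and 12.1%. Cd163, the receptor for hemoglobin bound to haptoglobin, averaged 11.2 ± 4.37 FPKM in Ctrl hearts against 5.08 ± 2.10 FPKM in cKO hearts (limma adjusted p 0.0576). Cd68 lay in the other direction, with 6.84 ± 1.33 FPKM in Ctrl and 8.37 ± 1.07 FPKM in cKO hearts (limma adjusted p 0.199). Both are named after their values were seen. The part of macrophages in the rise of Hmox1 was not tested. The 7 erythroid genes measured summed to 881 to 2058 FPKM in Ctrl and 586 to 1590 FPKM in cKO, and of the 6 tested none passed.

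Nqo1 (chromosome 8, 107388225 to 107403206, minus strand) encodes the quinone reductase often taken as the standard readout of NRF2. It was the most abundant of the 9 in Ctrl hearts, at 39.5, 32.8 and 28.1 FPKM, and stood at 34.4, 25.8 and 31.0 FPKM in cKO hearts. The groups overlapped, and the log2 fold change was -0.13 with a 95% interval from -0.49 to 0.22 (limma adjusted p 0.533). The upper end of that interval lay below the lower end of the intervals of Hmox1, Txnrd1 and Srxn1, which began at 0.93, 0.71 and 1.30. The difference between these changes was not tested as such.

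Glutathione, the main small thiol of the cell, is made from glutamate, cysteine and glycine. Its limiting step is carried out by glutamate-cysteine ligase, whose catalytic subunit is encoded by Gclc and whose modifier subunit by Gclm. Gclc (chromosome 9, 77754535 to 77794485, plus strand) was at 4.55, 3.72 and 4.16 FPKM in Ctrl hearts against 6.10, 4.76 and 5.21 FPKM in cKO hearts. Each cKO heart was above each Ctrl heart, but the log2 fold change of 0.30 (SE 0.10) did not pass (limma adjusted p 0.0635). Gclm (chromosome 3, 122245557 to 122270732, plus strand) was at 7.85, 5.84 and 6.57 FPKM in Ctrl hearts against 11.5, 7.13 and 9.78 FPKM in cKO hearts. Here cKO replicate 2 lay within the Ctrl range, and the log2 fold change of 0.42 (SE 0.17) did not pass either (limma adjusted p 0.103). Both genes passed without cKO replicate 2, the lowest cKO heart for each, with log2 fold changes of 0.37 and 0.59 (adjusted p 0.0425 and 0.0211). Without cKO replicate 1, the highest, the log2 fold changes were 0.22 and 0.28 and did not pass (adjusted p 0.152 and 0.252). Both passed with the replicate number as a block (adjusted p 0.0362 and 0.0254), although a pairing of same-numbered hearts was not shown. In the other 13 of 15 alternatives neither gene passed. The ratio of Gclc to Gclm was 0.580 to 0.636 in Ctrl and 0.530 to 0.668 in cKO hearts, and thus overlapped.

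Gsr (chromosome 8, 33652523 to 33698163, plus strand) encodes glutathione reductase, which returns oxidized glutathione to its reduced form with NADPH. It rose from 10.5, 10.2 and 8.63 FPKM in the Ctrl hearts to 17.4, 13.3 and 13.9 FPKM in the cKO hearts. The groups did not overlap, which in either direction held for 51.2% of all genes tested, and its log2 fold change reached 0.56 (SE 0.12; limma adjusted p 0.0136).

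The thioredoxin system held the largest change of the 9 genes. Srxn1 (chromosome 2, 152105516 to 152111376, plus strand) encodes sulfiredoxin, which repairs peroxiredoxins that peroxide has overoxidized. It was at 11.7, 9.53 and 11.1 FPKM in Ctrl hearts against 40.3, 32.3 and 31.0 FPKM in cKO hearts. The lowest cKO heart was thus well above the highest Ctrl heart, and its log2 fold change reached 1.59 (SE 0.12; limma adjusted p 0.000618), larger than that of 99.3% of genes tested. Txnrd1 (chromosome 10, 82833951 to 82897712, plus strand) encodes the cytosolic thioredoxin reductase, a selenoprotein that passes electrons from NADPH to thioredoxin. It was at 13.3, 12.7 and 11.9 FPKM in Ctrl hearts against 36.3, 22.3 and 27.3 FPKM in cKO hearts, with a log2 fold change that reached 1.10 (SE 0.16; limma adjusted p 0.00385). The Ctrl hearts lay close together, with a spread of 5.22% of the mean, and the cKO hearts apart, with 24.8%. Genes overlapping Txnrd1 in position averaged at most 1.80 FPKM over the 6 hearts.

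As FPKM is a level per length, the genes can be ordered within a group. In Ctrl hearts Nqo1 was highest with a mean of 33.5 FPKM, followed by Nfe2l2, Keap1, Txnrd1, Srxn1, Gsr, Hmox1, Gclm and Gclc, which closed the order at 4.14 FPKM. The ranges of Srxn1 and Gsr overlapped, as did those of Gsr and Hmox1 and those of Hmox1 and Gclm. In cKO hearts Srxn1 was highest with 34.5 FPKM, followed by Nqo1 with 30.4, Txnrd1 with 28.7 and Hmox1 with 24.0 FPKM, and the ranges of these neighbours overlapped. Nfe2l2, Gsr, Keap1, Gclm and Gclc followed, the last again lowest with 5.36 FPKM, and the ranges of Nfe2l2 and Gsr and those of Keap1 and Gclm overlapped.

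**Figure D2:**
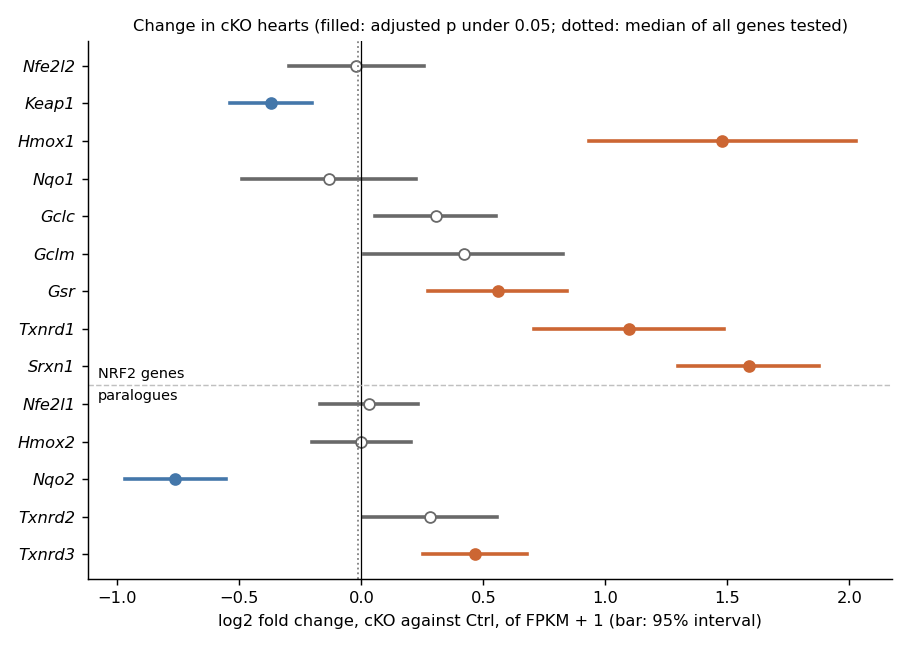
Fitted log2 fold change of FPKM + 1 in cKO against Ctrl hearts (horizontal axis) with its 95% interval for the 9 NRF2 genes and, under the dashed line, 5 paralogues. Filled points passed an adjusted p of 0.05 (orange higher, blue lower in cKO), and the dotted line is the median of all genes tested, -0.02.

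Several of the 9 genes have a paralogue that does related work in another place or without induction, and these were set beside them. Hmox2, the constitutive heme oxygenase, measured 22.0, 24.8 and 23.1 FPKM in Ctrl hearts against 21.3, 24.9 and 23.7 FPKM in cKO hearts, with a 95% interval of its log2 fold change from -0.20 to 0.20 (limma adjusted p 0.999). The ratio of Hmox1 to Hmox2 FPKM went from 0.234 to 0.415 in Ctrl to 0.736 to 1.51 in cKO hearts without overlap. Txnrd2, the mitochondrial thioredoxin reductase, was at 6.83, 8.13 and 6.94 FPKM in Ctrl hearts against 10.4, 7.81 and 9.13 FPKM in cKO hearts and did not pass (log2 fold change 0.28, limma adjusted p 0.103). It passed without cKO replicate 2 (adjusted p 0.0386) and when mtDNA-encoded genes were left out of the scaling (adjusted p 0.0494). Txnrd1 stood at 1.56 to 1.94 times the level of Txnrd2 in Ctrl and at 2.86 to 3.48 times in cKO hearts. Txnrd3, a reductase best known from testis that joins a glutaredoxin domain to the thioredoxin reductase, rose from 5.59 ± 0.552 to 8.09 ± 0.566 FPKM (SD, n = 3 each; limma adjusted p 0.00952).

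Nqo2, a quinone reductase that uses dihydronicotinamide riboside in place of NADPH, fell from 8.07, 9.37 and 9.84 FPKM in Ctrl to 5.06, 4.68 and 5.08 FPKM in cKO hearts (log2 fold change -0.76, limma adjusted p 0.0019). Nfe2l1, an NRF2 relative that controls proteasome genes, was at 137 ± 8.24 FPKM in Ctrl and 140 ± 9.01 FPKM in cKO hearts, a far higher level than Nfe2l2 (limma adjusted p 0.808). Nfe2l3 and Nfe2 stayed below 0.15 FPKM in every heart and were not tested.

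**Figure D3:**
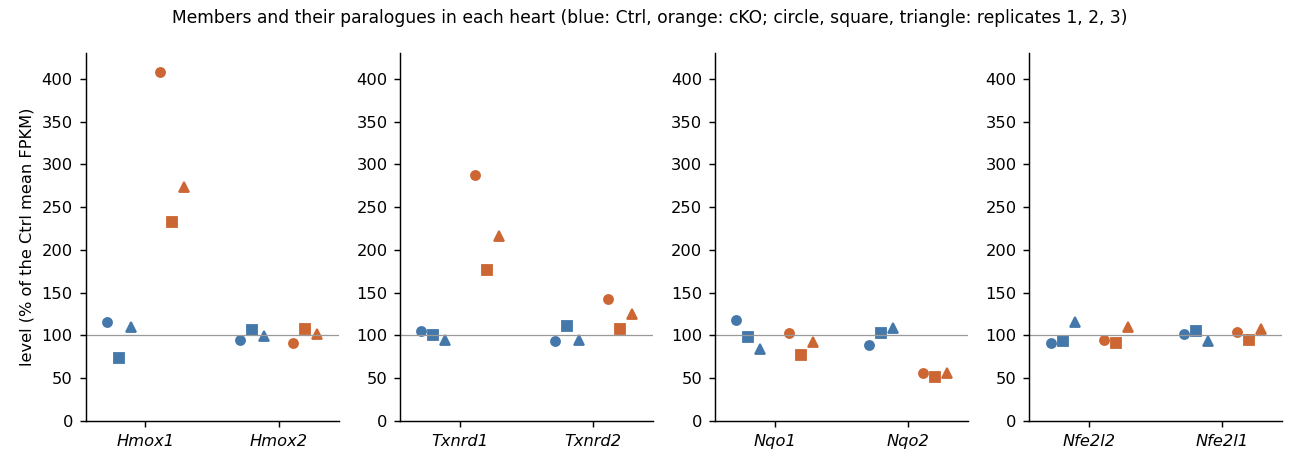
Level in each heart as a percentage of the Ctrl mean FPKM of the same gene (vertical axis, from 0) for 4 genes of the pathway and a paralogue of each, with Ctrl in blue and cKO in orange. Hmox1, Txnrd1 and, by less, Txnrd2 lie above the line at 100% in all cKO hearts, Nqo2 lies below it in all cKO hearts, and Nqo1, Nfe2l2, Nfe2l1 and Hmox2 scatter around it.

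The proteins that restrain or release NRF2 were followed in a list of 14, of which 12 could be tested. Of these 4 rose, 2 fell and 6 did not pass, where 16.3% of all genes were called higher and 17.0% lower, so that the count of falls was near the share over all genes. Without cKO replicate 2, 3 were higher and 1 lower, beside 15.4% and 15.5% of all genes tested in that fit. Without Ctrl replicate 1, 2 were higher and 2 lower, beside 11.2% and 12.1%. Bach1, the repressor that occupies antioxidant response elements until heme removes it, fell from 6.50 ± 0.938 to 4.30 ± 0.617 FPKM (SD, n = 3 each; limma adjusted p 0.0217). Cul3, the scaffold of the ligase that KEAP1 serves, fell from 28.6 ± 2.42 to 22.98 ± 0.839 FPKM (limma adjusted p 0.0314). Both calls were near the threshold, and 4 and 7 of 15 alternatives lost them. Dpp3, whose product competes with NRF2 for KEAP1, rose from 7.59 ± 0.230 to 12.9 ± 1.65 FPKM, and Gsk3b, a kinase that marks NRF2 for a second ligase, rose from 7.05 ± 0.444 to 10.5 ± 1.13 FPKM. Sesn2, a stress-induced protein that promotes the removal of KEAP1 by autophagy, was at 1.24, 1.34 and 1.73 FPKM in Ctrl hearts against 2.31, 8.47 and 7.20 FPKM in cKO hearts (log2 fold change 1.39, limma adjusted p 0.0282). That rise was smallest in cKO replicate 1, and 6 of 15 alternatives lost the call.

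The rest of the pathway was taken from a list of 44 further genes known as NRF2 targets. Of the 40 that could be tested 14 rose, 9 fell and 17 did not pass, beside 16.3% higher and 17.0% lower among all genes tested, and the median log2 fold change was 0.03. Without cKO replicate 2, 16 were higher and 9 lower, beside 15.4% and 15.5% of all genes, and without Ctrl replicate 1, 11 were higher and 5 lower, beside 11.2% and 12.1%.

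Genes that supply and move glutathione rose in 4 of 5 cases and none fell, also without cKO replicate 2. Slc3a2, the heavy chain of amino acid exchangers, rose from 13.2 ± 1.81 to 33.2 ± 4.94 FPKM, Gss, glutathione synthetase, from 2.36 ± 0.227 to 6.49 ± 1.5 FPKM, and Abcc4, an exporter of conjugates, from 2.90 ± 0.284 to 7.06 ± 1.48 FPKM (SD, n = 3 each; limma adjusted p between 0.00166 and 0.00328). Slc7a11, the light chain that imports cystine with SLC3A2, was too low to be tested and is named here after its values were seen. It had 6, 0 and 8 reads in the Ctrl hearts and 86, 137 and 161 reads in the cKO hearts, or at most 0.0238 FPKM in Ctrl and 0.365 to 0.460 FPKM in cKO. Slc3a2, Slc7a11 and Sesn2 are also known targets of ATF4.

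Of 6 genes listed under NADPH 3 rose and none fell, beside 16.3% higher and 17.0% lower among all genes tested. The list includes Taldo1 and Tkt, whose enzymes do not form NADPH themselves. Without cKO replicate 2, 3 were higher and 1, Idh1, lower, beside 15.4% and 15.5%. Without Ctrl replicate 1, 1 was higher and none lower, beside 11.2% and 12.1%. The 3 that rose belong to the pentose phosphate pathway, as does the listed transketolase gene Tkt, which was at 2.77 ± 0.111 and 2.84 ± 0.192 FPKM and did not pass (limma adjusted p 0.805). G6pdx, glucose-6-phosphate dehydrogenase at its entry, rose from 2.58 ± 0.241 to 4.82 ± 1.14 FPKM, Pgd, which yields NADPH at a later step, from 5.88 ± 0.529 to 9.79 ± 2.78 FPKM, and Taldo1, transaldolase, from 40.5 ± 2.68 to 70.1 ± 23.8 FPKM (SD, n = 3 each; limma adjusted p between 0.0118 and 0.0387). Taldo1 was at 97.2 FPKM in cKO replicate 1 and at 52.7 and 60.3 FPKM in the other cKO hearts, and the calls of Taldo1 and Pgd were each lost in 6 of 15 alternatives. Of the partners of Txnrd1 and Srxn1, none of Txn1, Prdx1 and Prdx6 passed, and without cKO replicate 2 Txn1 was called higher. Prdx1, a peroxiredoxin that sulfiredoxin repairs, stood at 77.9 ± 6.48 and 77.7 ± 9.97 FPKM (limma adjusted p 0.964).

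The 17 tested genes of conjugation and detoxification were divided, with 5 higher and 7 lower, with 4 and 6 without cKO replicate 2, and with 4 and 3 without Ctrl replicate 1. Esd, S-formylglutathione hydrolase, rose from 27.6 ± 0.506 to 86.8 ± 30.6 FPKM, and the aldo-keto reductase Akr1b8 from 2.67 ± 0.539 to 7.26 ± 2.06 FPKM. Gsta1, a glutathione S-transferase, rose from 2.20 ± 0.905 to 7.24 ± 3.37 FPKM (limma adjusted p 0.0287), a value that is uncertain because reads may be shared with its near-identical copy Gsta2, and 5 of 15 alternatives lost the call. Another alpha-class transferase, Gsta3, fell from 5.90 ± 0.405 to 2.47 ± 0.368 FPKM (limma adjusted p 0.00132) and Mgst1, a membrane-bound transferase of a separate family, from 34.2 ± 4.55 to 15.7 ± 6.48 FPKM (limma adjusted p 0.0259). Aldh3a1, an aldehyde dehydrogenase, fell from 1.04 ± 0.450 to 0.249 ± 0.140 FPKM. The calls of Mgst1 and Aldh3a1 were each lost in 4 alternatives.

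Of 6 further genes of heme and iron handling tested beside Hmox1, 2 fell and none rose, while without cKO replicate 2 the same 2 were lower and Blvra and Ftl1 were called higher. Slc40a1, ferroportin, the iron exporter, fell from 4.47 ± 0.352 to 2.13 ± 0.686 FPKM and Fech, ferrochelatase, the last enzyme of heme synthesis, from 50.4 ± 3.87 to 32.6 ± 4.47 FPKM (SD, n = 3 each; limma adjusted p 0.0103 and 0.00769). The ferritin chains and the biliverdin reductases did not pass in the fit on all 6 hearts. Of the 3 genes that feed back on NRF2, Sqstm1, whose product p62 pulls KEAP1 into autophagy, rose from 164.9 ± 9.53 to 292 ± 35.4 FPKM, and Mafg, a small MAF partner, from 11.2 ± 0.398 to 14.5 ± 0.700 FPKM (limma adjusted p 0.00279 and 0.0111). The same pair was called without cKO replicate 2.

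**Figure D4:**
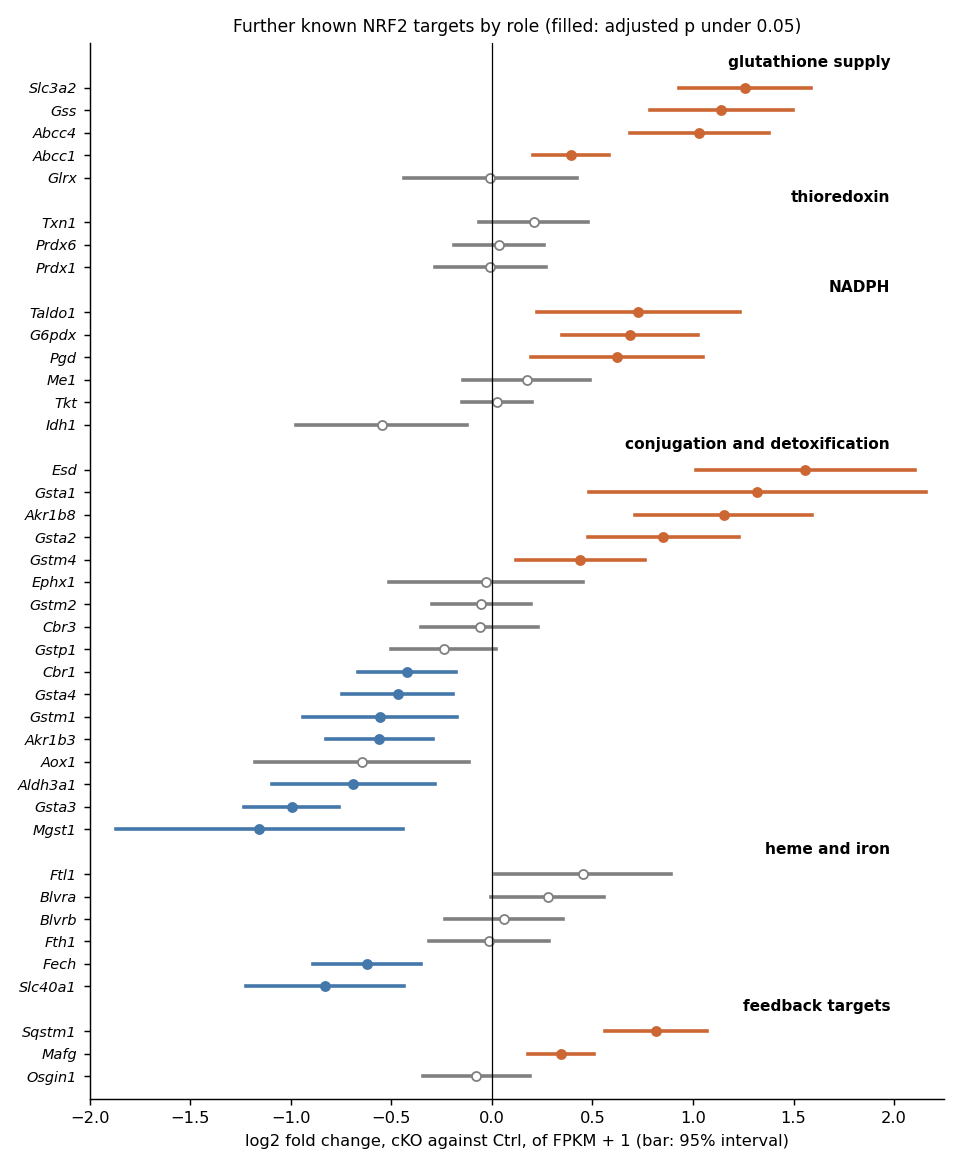
Fitted log2 fold change of FPKM + 1 in cKO against Ctrl hearts (horizontal axis) with its 95% interval for the 40 further NRF2 targets tested, grouped by role. Filled points passed an adjusted p of 0.05: 14 were higher (orange), among them 4 of 5 genes of glutathione supply, and 9 were lower (blue), 7 of them in conjugation and detoxification.

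In mitochondria a parallel set of thiol enzymes works beside those of the cytosol. Of 7 such genes tested 1 was lower and none higher, beside 17.0% lower and 16.3% higher among all genes tested. The count of falls was thus near the share over all genes. It was Prdx5, a peroxiredoxin that fell from 232.5 ± 16.9 to 175 ± 8.56 FPKM (limma adjusted p 0.0124). The counts were the same without cKO replicate 2, beside 15.5% lower and 15.4% higher. They leave out Txnrd2, the mitochondrial thioredoxin reductase given above among the paralogues. It did not pass with all 6 hearts and was called higher without cKO replicate 2 (limma adjusted p 0.0386). Nnt, the transhydrogenase that makes NADPH in mitochondria and is disrupted in C57BL/6J mice, did not exceed 0.39 FPKM in any heart, was not tested and is named after its values were seen.

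The 3 cKO hearts did not share 1 level of the pathway. Among them replicate 1 was highest for 7 of the 9 genes and for all 4 that rose, and replicate 2 was lowest for 8 of the 9. Over all genes tested replicate 1 was the highest cKO heart for 38.4% and replicate 2 the lowest for 40.4%, and over the genes called higher replicate 1 was the highest for 61.3%. Of the 14 further targets that rose, 11 were highest in cKO replicate 1.

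Atf4 and 5 stress genes driven by it had another order. Atf4 reached 66.2, 152.9 and 125 FPKM in cKO hearts 1 to 3 against 39.7 ± 1.95 FPKM in Ctrl, and Trib3, a pseudokinase of that response, at 4.75, 36.2 and 28.8 FPKM against 1.46 ± 0.269 FPKM. Of these 6 genes 5 were lowest in cKO replicate 1, which held for 32.6% of all genes tested and 14.1% of those called higher, and Asns, asparagine synthetase, was the exception with 72.4 FPKM there and 63.6 and 61.7 FPKM in the other cKO hearts. Of the 6, 4 rose and none fell, where 16.3% of all genes tested were called higher and 17.0% lower. Without cKO replicate 2, 5 were higher, beside 15.4% of all genes tested in that fit. Replicate 1 was also the lowest cKO heart for 9 of 10 cardiomyocyte markers and had the fewest reads of the 6 libraries. The part of cell composition, depth and sex in the order of the cKO hearts was not tested.

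**Figure D5:**
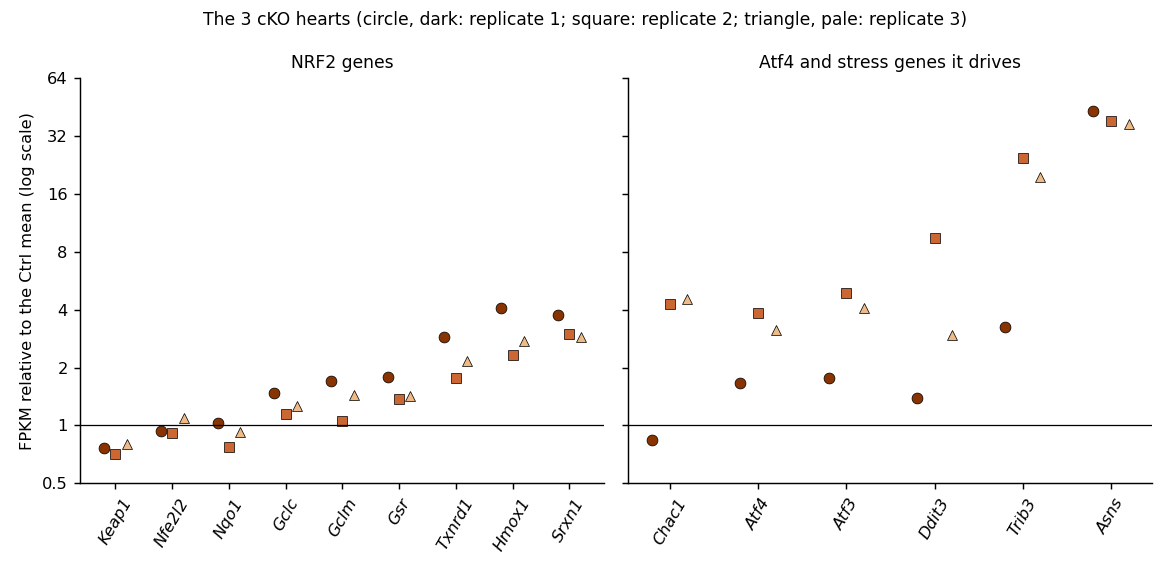
FPKM of each cKO heart relative to the Ctrl mean of the same gene (vertical axis, log scale; the line at 1 is the Ctrl mean) for the 9 NRF2 genes and for Atf4 with 5 stress genes. The circle of replicate 1 is the highest point for 7 NRF2 genes and the lowest for 5 of the 6 stress genes.

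Cells other than cardiomyocytes also contribute to these values, and in whole tissue fewer cells of a type and less RNA per cell cannot be told apart. Beside the counts that follow, 16.3% of all genes tested were called higher and 17.0% lower. Of 8 endothelial markers 5 fell and none rose (7 without cKO replicate 2), with summed levels of 144 to 168 FPKM in Ctrl and 95.8 to 113 FPKM in cKO hearts. Of 8 fibroblast markers Col1a1 and Postn rose, Dcn fell and 5 did not pass, with the same counts without cKO replicate 2 and summed levels of 158 to 184 FPKM and 147 to 159 FPKM. Of 7 tested markers of smooth muscle and pericytes 2 rose and 2 fell (1 and 3 without cKO replicate 2), and their sums were 168 to 186 FPKM and 108 to 139 FPKM. Of 5 adipocyte markers 3 were tested, of 8 other leukocyte markers 2 and of 5 atrial markers all, and the rest were too low. None of those tested was called, with or without cKO replicate 2. Without Ctrl replicate 1, whose atrial sum stood apart, 1 of the 5 genes listed as atrial was called higher. It was Nppa, which the study also counts as a hypertrophy marker, so the call does not speak for atrial tissue alone. In that fit 1 fibroblast marker was called higher in place of 2, and 4 endothelial markers lower in place of 5. Of the cardiomyocyte markers 6 were then lower in place of 7, and of the macrophage markers 2 in place of 1. In the same fit 11.2% of all genes tested were called higher and 12.1% lower. The summed level of the 4 NRF2 genes that rose cannot be assigned to a cell type from these data, and the part of these markers in the changes was not tested.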

How the data were processed

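The authors prepared poly-A selected paired-end libraries from ventricular tissue, aligned clean reads with HISAT2 2.0.5, counted them per gene with featureCounts 1.5.0-p3 and deposited FPKM values, which are fragment counts set relative to gene length and library size, with 1 column per heart. Use of strand in counting was not given in the sources used here. The submitters' processing notes name mm9, but of 54409 gene identifiers shared with GENCODE M21 all 54409 had the same chromosome and 53499 the same start and end, so coordinates are GRCm38. The table also gives the gene length.

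Group and replicate came from the sample titles, and columns were matched by name. The scale of all tests was log2(FPKM + 1), on which changes of low genes appear smaller than they are, and genes whose mean over the 6 hearts was under 0.5 FPKM were left out. The groups were compared with limma 3.58.1 in R 4.3.3 (eBayes with trend, no covariates, two-sided, adjusted p threshold 0.05). FPKM times length gave whole reads for 100% of values within 0.01 of a read, and voom on these reads served as an alternative. Libraries of 1 group differed by more than counting noise (mean chi-square 13.2 or higher per gene), and all 6 were kept. On 5 simulated tables with 12940 to 12989 genes tested, 200 genes each were changed by 2- or 4-fold in either direction. There 70.9% of the 2-fold and 91.8% of the 4-fold changes were recovered, and 4.09% of calls were false. In the real comparison 33.3% of genes tested were called, far more than were changed in the simulation. These shares therefore describe the simulated tables and do not give the error rate of the calls reported here.

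The members and lists were chosen with earlier results of these data known. Genes named are the 9 members, Mrps5, the paralogues, and in each other list up to 3 higher and 3 lower genes with the largest change past the threshold and at least 1 FPKM in the higher group, or, where none passed, the most abundant gene. For the gene with the largest change, the 5 most similar genes are named as well. Slc7a11, Tkt, Txn1, Prdx6, Idh1, Blvra, Ftl1, Cd163, Nnt and the marker genes named fall outside this rule and were chosen after their values were seen, as was the count of each list without cKO replicate 2 or Ctrl replicate 1. The alternatives tried were 0.1 as pseudocount, a minimum of 1 FPKM or no filter, median-of-ratios scaling, scaling without mtDNA-encoded genes, eBayes without trend, voom, protein-coding genes only, the replicate block and leaving out each heart. That same-numbered hearts pair was not shown: deviations from the group means correlated at -0.06, 0.17 and -0.01.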

Additional observations from a re-analysis of the deposited data

How the results depend on the processing

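Srxn1, Hmox1, Txnrd1, Gsr and Keap1 kept direction and call in all 15 alternatives, with log2 fold changes of 1.47 to 1.67, 1.26 to 1.65, 0.92 to 1.26, 0.45 to 0.64 and -0.41 to -0.29. Nqo1 stayed negative and uncalled (-0.25 to -0.01), and Gclc and Gclm passed in 2 alternatives each. With each replicate left out in turn, 4 to 6 of the 9 genes were called higher and 1 lower. The further targets then gave 10 to 16 higher and 5 to 9 lower, the lowest count of 5 without Ctrl replicate 1 or 3, and all genes gave 1400 to 1993 higher and 1434 to 2006 lower, against 2110 and 2205. The counts of all genes moved by over 1.5 times without Ctrl replicate 3 (1400 higher and 1450 lower) and without Ctrl replicate 2 (1434 lower). Without the filter on low values 5 further targets were lower; more genes are then tested. Of all genes, 2647 were higher and 1623 lower once mtDNA-encoded genes were left out of the scaling.

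With the replicate block 6 of the 9 genes were called higher and 1 lower, and 1874 and 1982 of all genes. Among the other genes named, Taldo1 lost its call under the block (adjusted p 0.0511).

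Only values near 0 changed sign. Nfe2l2 went to 0.0040 with median-of-ratios scaling and 0.062 with scaling without mtDNA-encoded genes, and Prdx1 to 0.018 and 0.079. When a replicate was left out, Nfe2l2 ranged from -0.099 to 0.084, Prdx1 from -0.071 to 0.10, Nfe2l1 from -0.019 to 0.083 and Hmox2 from -0.048 to 0.061, and none of these passed. For these shifts the cause was not tested. Depth limits Slc7a11, with at most 8 reads in a Ctrl heart.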

Other observations

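The genes whose pattern over the 6 hearts was most like that of Srxn1, by Pearson's r of log2(FPKM + 1), were Ankrd13b, Ltv1, Degs1, Prmt3 and Myo1c, with r from 0.998 to 0.999. The 6 points fall into the 2 groups, so this likeness reflects mainly the difference between genotypes, and it is given as a description. Ltv1, a factor of small ribosomal subunit assembly, was at 7.60 ± 0.471 FPKM in Ctrl and 14.7 ± 0.992 FPKM in cKO hearts. Prmt3, which methylates a ribosomal protein, was at 2.26 ± 0.171 and 5.29 ± 0.562 FPKM, and Degs1, an enzyme of ceramide synthesis, at 19.1 ± 0.289 and 25.7 ± 0.755 FPKM. Myo1c, an unconventional myosin, stood at 22.3 ± 1.66 and 47.2 ± 6.12 FPKM, and Ankrd13b at 4.92 ± 0.273 and 9.67 ± 0.902 FPKM (SD, n = 3 each).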
